A study of Danio rerio with 6 samples.

Results

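The collagen genes of whole zebrafish embryos were compared between *dancr* del F0 crispants and mock control embryos. Genes were chosen by name, taking each row of the count table whose lower case name begins with col, a number, the letter a and another number. Of 31953 genes, 47 met this rule. The 2 genes *col4a3bpa* and *col4a3bpb* encode ceramide transfer proteins and are not collagens, so 45 collagen genes remained, and 42 of them had enough counts to be tested beside 20812 genes in all. The 3 that did not were *col10a1a*, *col10a1b* and *col8a1b*. By type, 13 of the 45 were fibrillar (types I, II, V, XI and XXVII), 6 were type IV, 2 were multiplexins (types XV and XVIII), 2 were type VII, 9 were fibril-associated collagens (FACITs, types IX, XII, XIV and XIX), 6 were of types VI and XXVIII, 5 were short network formers (types VIII and X) and 2 were type XVII.

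Each of the 6 libraries was made from polyA RNA of pooled whole embryos at 30 hours after fertilisation, 3 from mock controls and 3 from crispants. The crispants were injected with Cas9 and a pool of 4 crRNAs that removes the promoter of *dancr*, a long non-coding RNA gene that also hosts small nucleolar RNAs. Mock embryos received an injection mixture without these crRNAs. F0 crispants are mosaic, and the embryos sequenced were those of the severe phenotypic Classes I and II, so the crispant group was also selected by appearance. The paper describes the 3 replicates of each group as biological. Neither it nor the labels say that they came from separate clutches, so p-values measure the spread between these libraries, which may be partly technical. At the targeted locus on chromosome 20 (GRCz10), the row of the small nucleolar RNA *SNORA26* held 22, 8 and 16 counts in mock replicates 1 to 3 and 0, 7 and 4 in crispant replicates 1 to 3. Every crispant library was thus below every mock library, but the counts are low and the margin is 7 against 8. This row alone is therefore weak evidence on the locus. The paper itself reports, by RT-qPCR, significantly less *dancr*, *snora26* and *snora27* in F0 crispants at this stage. It also reports fewer RNA-seq reads over the locus apart from the last exon.

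Collagens are secreted or membrane proteins built from 3 chains wound into a triple helix. Fibrillar collagens assemble into the banded fibrils of dermis, tendon, cartilage and the notochord sheath, FACITs sit on the surface of those fibrils, and type IV chains form the meshwork of basement membranes. In the zebrafish embryo the notochord sheath, the skin and the fin fold are major sites of collagen production, well before bone is laid down.

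Total counts ran from 33841805 to 40515803 per library. Mock replicate 3 stood apart from the other 5 libraries, with 33.4% of its counts in its 100 most abundant genes against 24.2% to 26.9% in the others and a TMM scaling factor of 0.749 against 0.988 to 1.14. Collagen genes took 1.36%, 1.14% and 0.790% of all counts in mock replicates 1 to 3 and 1.00%, 1.24% and 1.15% in crispant replicates 1 to 3, so the groups overlapped and the lowest share was that of mock replicate 3. Levels are given as FPKM, fragments scaled by gene length and library depth, which the authors deposited for each library and which alone allow genes of different length to be ranked. A difference is given as the log2 fold change of crispants against mock controls, on which 1 is a doubling, and comes from the raw counts.

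No collagen gene passed the threshold of an adjusted p of 0.05 and a 2-fold change in edgeR's quasi-likelihood test. This held for 0 of the 42 tested and for 0% of all 20812 genes. DESeq2 and limma-voom called 0 of the 42 as well, beside 0.794% and 0% of all genes. At an unadjusted p of 0.05, 3 collagens were lower in the crispants (*col17a1a*, *col4a3* and *col28a1*) and 0 were higher, which is 7.14% of the 42 against 5.49% of all genes in either direction and 2.47% of all genes in the lower direction. The 2 groups did not overlap for 2 collagens, *col4a3* and *col5a2b*, both lower in crispants, whereas 11.9% of all genes did not overlap in either direction. The median log2 fold change was -0.12 over the 42 collagens and -0.04 over all genes, and 30 of the 42 lay below 0 (71.4%) against 54.5% of all genes. Of the 42, 35 had a log2 fold change smaller than 0.5 in size, and for 21 the 95% interval lay within a 2-fold change either way, so that a larger change in these was outside the interval. In a whole embryo, fewer cells of a type and less RNA per cell cannot be told apart.

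**Figure D1:**
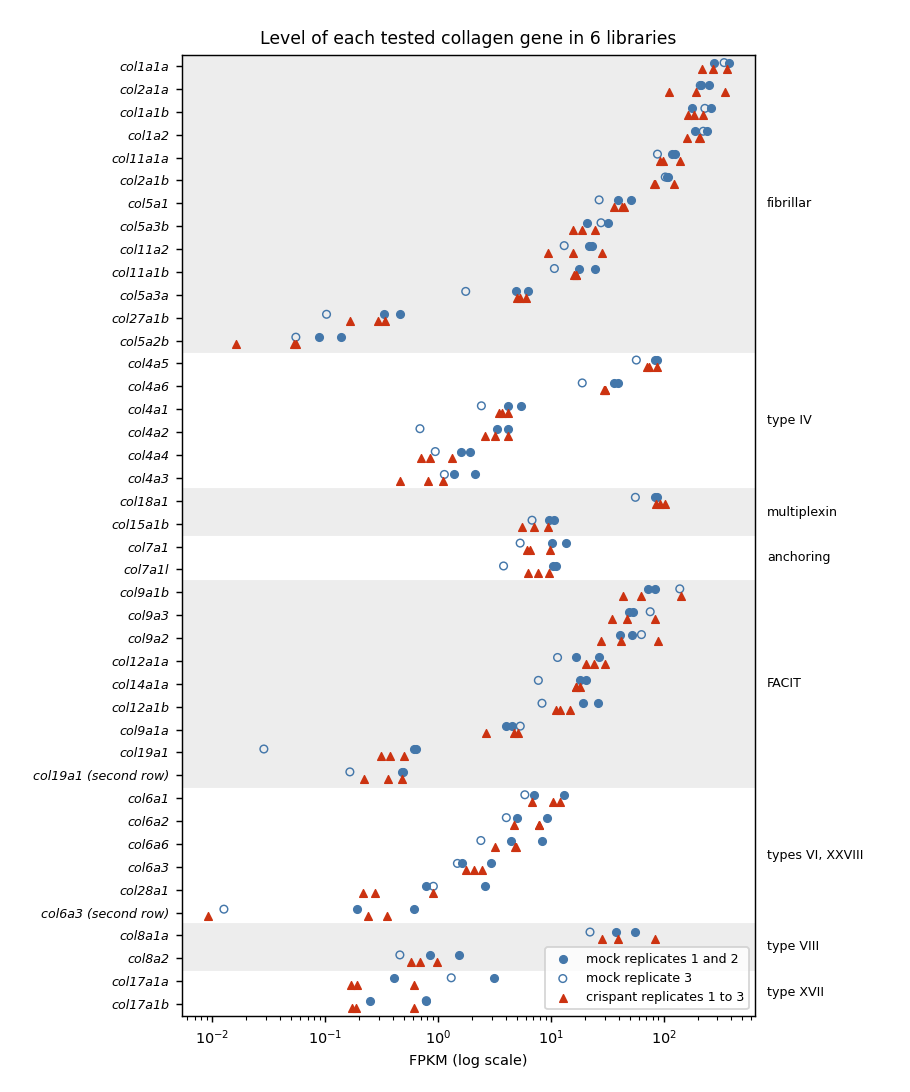
Level of the 42 tested collagen genes in each of the 6 libraries. The horizontal axis is FPKM on a log scale, rows are genes grouped by class and ordered by mean level, filled circles are mock replicates 1 and 2, open circles mock replicate 3 and triangles the 3 crispant libraries. The type I genes and *col2a1a* are highest, between 111 and 382 FPKM, and the open circle lies left of the other mock libraries in most rows.

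Type I collagen, the main fibril of skin, tendon and bone, was the most abundant collagen. FPKM of *col1a1a*, which encodes an alpha 1 chain, was 382, 278 and 344 in mock replicates 1 to 3 and 220, 275 and 368 in crispant replicates 1 to 3, which placed it 224th of all genes by mean level. Its duplicate *col1a1b* had 263, 179 and 232 FPKM in mock and 166, 187 and 222 in crispant libraries. The alpha 2 chain gene *col1a2* had 243, 190 and 225 FPKM in mock and 160, 207 and 209 in crispant libraries. Mock replicate 1 was the highest mock library and crispant replicate 1 the lowest library of all for each of the 3 genes, and the groups overlapped in each. The log2 fold changes were -0.22 (95% interval -0.90 to 0.47) for *col1a1a*, -0.23 (-0.84 to 0.38) for *col1a1b* and -0.19 (-0.77 to 0.38) for *col1a2*, so a 2-fold loss or gain of type I transcripts lay outside all 3 intervals. The alpha 1 to alpha 2 ratio, the summed FPKM of *col1a1a* and *col1a1b* over that of *col1a2*, was 2.65, 2.40 and 2.56 in mock and 2.41, 2.23 and 2.82 in crispant libraries. This ratio and the other ratios between chains given below were chosen after the values were seen and were not tested.

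Type II collagen is the fibril of cartilage and, in the embryo, of the notochord sheath. FPKM of *col2a1a* was 215, 253 and 212 in mock and 194, 347 and 111 in crispant libraries. The mock libraries lay close together, and the crispant libraries lay on both sides of them, with replicate 2 highest and replicate 3 lowest. Means were 227 ± 23 (SD, n = 3) and 217 ± 120 (SD, n = 3), and the log2 fold change was -0.06 (95% interval -0.98 to 0.85). Its duplicate *col2a1b* had 109, 107 and 103 FPKM in mock and 84.4, 122.7 and 82.3 in crispant libraries, with a log2 fold change of -0.14 (-0.69 to 0.40). The FPKM of *col2a1a* over that of *col2a1b* was 1.97, 2.37 and 2.04 in mock libraries and 2.29, 2.83 and 1.35 in crispant libraries, so that crispant replicate 3 had the lowest and crispant replicate 2 the highest ratio.

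Several other cartilage and notochord collagens, 3 of the 4 tested type IX genes among them, were ordered in the same way among the crispants. The order was not confined to such genes. It also held for *col5a1* and *col18a1*, in which the highest crispant library was 1.23 and 1.21 times the lowest. Type IX collagen is a FACIT that coats type II fibrils. FPKM of *col9a1b* was 73.1, 83.8 and 139 in mock and 63.5, 142 and 44.0 in crispant libraries. That of *col9a2* was 40.9, 52.4 and 63.7 in mock and 42.0, 89.2 and 27.9 in crispant libraries. That of *col9a3* was 49.1, 53.7 and 76.1 in mock and 47.3, 84.2 and 35.0 in crispant libraries. These 3 genes thus had the same highest, second and lowest library, and log2 fold changes were -0.25 (95% interval -1.28 to 0.78), 0.02 (-0.92 to 0.95) and -0.11 (-0.89 to 0.68). The fourth, the less abundant *col9a1a*, added with its values known, had 4.54, 3.99 and 5.36 FPKM in mock and 5.15, 4.68 and 2.67 in crispant libraries, so that crispant replicate 3 was again lowest but crispant replicate 1, not 2, was the highest crispant library. The FPKM of *col9a2* over that of *col9a1b* was 0.559, 0.625 and 0.457 in mock and 0.661, 0.628 and 0.634 in crispant libraries. These did not overlap only by the narrow margin of 0.625 in mock replicate 2 against 0.628 in crispant replicate 2.

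The same order held for *col11a2*, a chain of the type XI collagen that starts type II fibrils, and for *col8a1a*, which forms a short chain network and is needed for a straight notochord in zebrafish. It held for *col11a1a* too. It did not hold for the type XI gene *col11a1b*, where crispant replicate 2 was the lowest crispant library. Nor did it hold for the type VIII gene *col8a2*, where crispant replicate 1 was. FPKM of *col11a2* was 21.7, 23.1 and 13.1 in mock and 15.8, 28.6 and 9.52 in crispant libraries, with a log2 fold change of -0.10 (95% interval -1.01 to 0.80). FPKM of *col8a1a* was 38.1, 56.1 and 22.3 in mock and 39.6, 83.2 and 28.2 in crispant libraries, with a log2 fold change of 0.38 (-0.65 to 1.40). The highest crispant library was 3.12 times the lowest for *col2a1a*, 3.22 times for *col9a1b*, 3.19 times for *col9a2*, 2.41 times for *col9a3*, 3.00 times for *col11a2* and 2.95 times for *col8a1a*, and in all 6 genes these were crispant replicates 2 and 3. The summed CPM of 16 notochord marker genes, of which 15 were tested, was 1299, 1541 and 1348 in mock and 1322, 1612 and 990 in crispant libraries. That of 11 floor plate markers ran from 379 to 502 in mock and from 334 to 499 in crispant libraries, with crispant replicate 3 lowest in both lists. These genes and marker sums were set side by side as a description, and the part of the embryos' notochord content in the collagen values was not tested. Without crispant replicate 2 the log2 fold change of *col2a1a* was -0.55 and without crispant replicate 3 it was 0.25, so its direction depended on which of these libraries was left out. For *col9a1b* it was -0.85 without crispant replicate 2 and 0.10 without mock replicate 3.

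**Figure D2:**
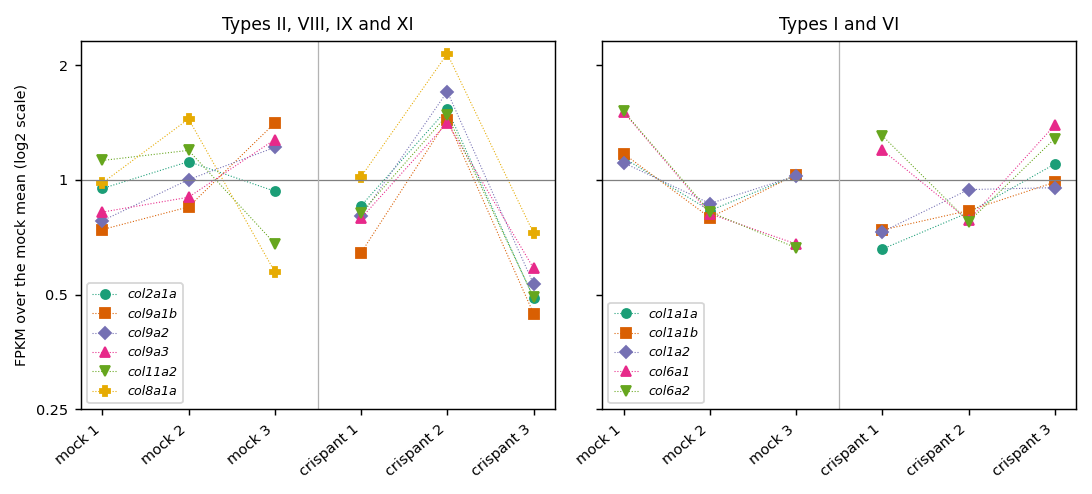
FPKM of single collagen genes in each library over the mean of the 3 mock libraries, on a log2 axis. The left panel shows *col2a1a*, *col9a1b*, *col9a2*, *col9a3*, *col11a2* and *col8a1a*, and the right panel the type I genes with *col6a1* and *col6a2*. Not drawn are *col9a1a*, *col2a1b*, *col11a1a*, *col11a1b* and *col8a2*. Of these *col2a1b* lay at 1.15 in crispant replicate 2 and 0.773 in crispant replicate 3. In *col11a1b* crispant replicate 2 was the lowest crispant library, and in *col8a2* crispant replicate 1 was. Dotted lines join the points of 1 gene and imply no order of libraries. On the left crispant replicate 2 lies between 1.41 and 2.14 and crispant replicate 3 between 0.446 and 0.726, whereas on the right crispant replicate 2 lies at or below 0.943.

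The remaining type XI and type V genes encode minor chains that start fibrils and limit their width. FPKM of *col11a1a* was 127, 119 and 88.2 in mock and 98.3, 140 and 92.5 in crispant libraries, with a log2 fold change of -0.01 (95% interval -0.63 to 0.60). That of *col11a1b* was 24.4, 17.9 and 10.8 in mock and 16.6, 16.2 and 16.6 in crispant libraries, with a log2 fold change of -0.10 (-0.76 to 0.55). The crispant libraries of *col11a1b* agreed closely, while the mock libraries ranged on both sides of them. FPKM of *col5a1* was 51.9, 39.3 and 26.8 in mock and 42.5, 44.7 and 36.3 in crispant libraries, with a log2 fold change of 0.07 (-0.56 to 0.69). FPKM of *col5a3b* was 32.4, 21 and 27.9 in mock and 15.6, 24.4 and 18.9 in crispant libraries, and its log2 fold change of -0.46 (SE 0.25) was the largest in size among fibrillar genes above 10 FPKM, with an unadjusted p of 0.097 in edgeR's test. Its paralogue *col5a3a* was less abundant, at 4.93, 6.25 and 1.76 FPKM in mock and 5.33, 6.06 and 5.02 in crispant libraries, with a log2 fold change of 0.35 (-0.58 to 1.27) that was -0.01 without mock replicate 3.

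Fibrillar genes near the floor of detection were *col27a1b*, a short-helix collagen known from cartilage and notochord, and *col5a2b*. Counts of *col27a1b* were 84, 64 and 15 in mock and 54, 68 and 35 in crispant libraries, with a log2 fold change of -0.18 (95% interval -1.53 to 1.18). Counts of *col5a2b* were 25, 17 and 8 in mock and 3, 11 and 11 in crispant libraries. The groups of *col5a2b* did not overlap after scaling only by the narrow margin of 0.0549 FPKM in mock replicate 3 against 0.0546 in crispant replicate 2, and its log2 fold change was -1.17 (SE 0.68, unadjusted p 0.124 in edgeR's test). Over the 13 fibrillar genes the median log2 fold change was -0.14, with 11 below 0 and 2 above, and fibrillar genes made up 65.7% to 72.5% of the summed collagen FPKM in the 6 libraries.

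**Figure D3:**
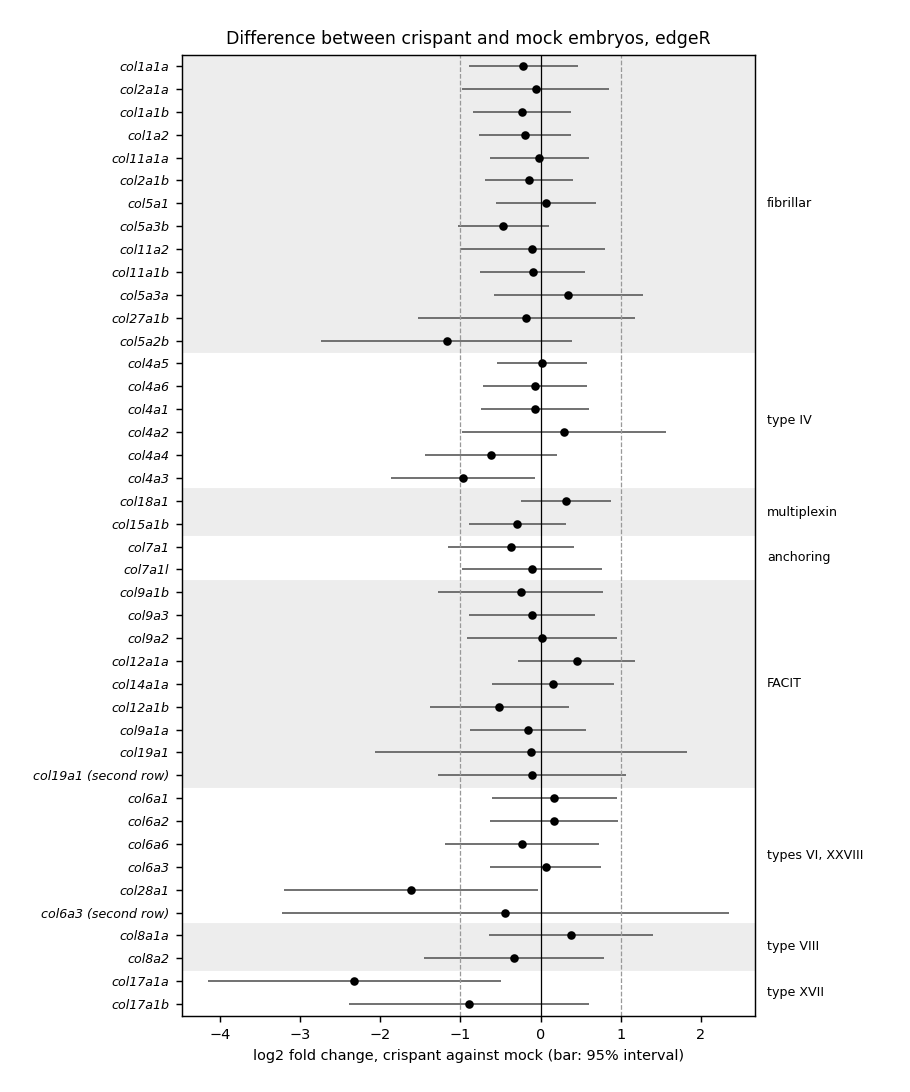
Log2 fold change of each tested collagen gene, crispants against mock controls, from edgeR on the counts of 6 libraries. Points are estimates, bars are 95% intervals, dashed lines mark a 2-fold change in each direction, and genes are grouped by class in order of mean level. Most of the more abundant genes lie near 0, whereas the type XVII genes, both of low level, lie at -2.32 and -0.89. The bars of *col4a3*, *col28a1* and *col17a1a* are the only 3 that do not reach 0.

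Type IV collagen genes lie in pairs in the genome, and the 3 pairs were expressed at different levels. The pair of *col4a6* and *col4a5*, head to head on opposite strands of chromosome 7 with 731 bases between them (GRCz10), was the most abundant. FPKM of *col4a5* was 88.2, 83.7 and 57.3 in mock and 70.8, 87.3 and 73.9 in crispant libraries, and that of *col4a6* was 39.3, 36.4 and 19 in mock and 29.6, 30.3 and 30.2 in crispant libraries. Log2 fold changes were 0.02 (95% interval -0.54 to 0.58) and -0.07 (-0.71 to 0.58), so neither differed by more than the spread of the mock libraries. The widespread basement membrane chains *col4a1* and *col4a2*, on chromosome 9, were lower. FPKM of *col4a1* was 5.46, 4.15 and 2.42 in mock and 3.50, 3.71 and 4.20 in crispant libraries, and that of *col4a2* was 4.16, 3.36 and 0.692 in mock and 3.21, 2.63 and 4.20 in crispant libraries. Their log2 fold changes were -0.07 (-0.75 to 0.60) and 0.30 (-0.97 to 1.57), the second of which was -0.14 without mock replicate 3.

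The third pair, *col4a3* and *col4a4*, was the least abundant and had the most negative fold changes of the type IV genes. In mammals these chains join the alpha 5 chain in the basement membrane of the kidney glomerulus. The gene *col4a4* spans bases 36093919 to 36197432 of chromosome 15 on the minus strand and *col4a3* spans bases 36196895 to 36254825 on the plus strand, so that they share 538 bases, and the libraries were made to keep strand. FPKM of *col4a3* was 1.39, 2.14 and 1.14 in mock and 0.461, 1.1 and 0.820 in crispant libraries, from 164 to 788 counts per library. All crispant libraries were below all mock libraries, although crispant replicate 2 and mock replicate 3 were nearly level. The log2 fold change was -0.97 (SE 0.39), and edgeR gave a quasi-likelihood p of 0.038 and a Benjamini-Hochberg adjusted p of 0.858. FPKM of *col4a4* was 1.59, 1.91 and 0.946 in mock and 0.842, 1.34 and 0.702 in crispant libraries, with a log2 fold change of -0.62 (SE 0.36, unadjusted p 0.119). Crispant replicate 2 lay above mock replicate 3 in *col4a4*, so its groups overlapped. With sample quality weights in limma-voom, which give more variable libraries less weight, *col4a3* passed the threshold (log2 fold change -1.69, adjusted p 0.0245) as did 1.56% of all genes, and *col4a4* had an adjusted p of 0.0408. In that fit 11 collagens were at an unadjusted p of 0.05, against 19.1% of all genes. The overlap of reads between the 2 genes as a source of their shared direction was not tested.

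**Figure D4:**
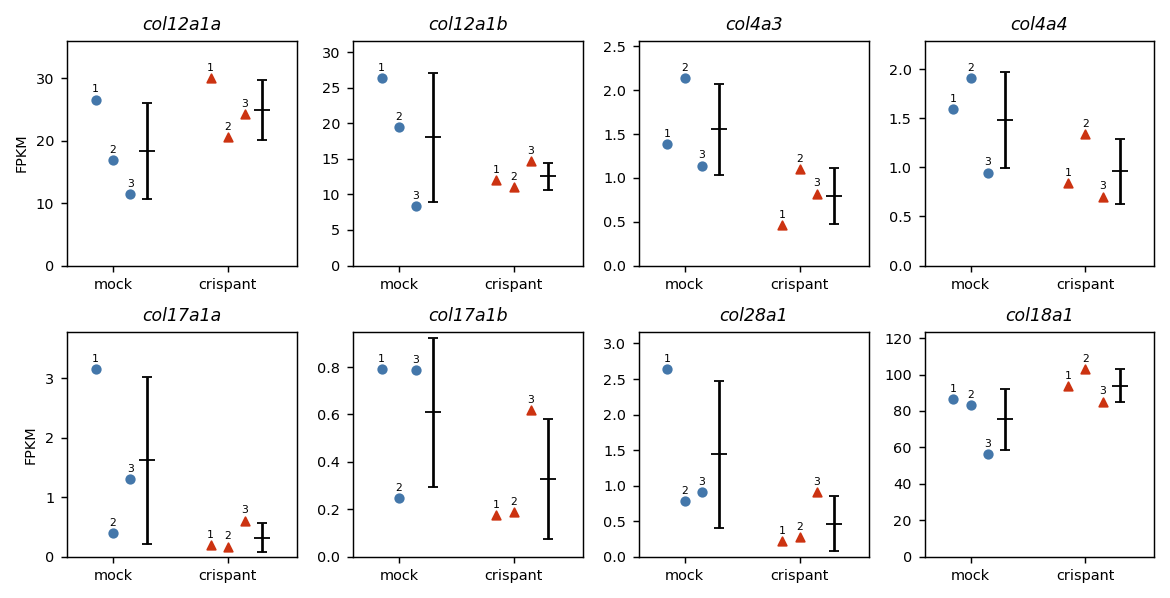
FPKM of 8 collagen genes in each library, with linear axes from 0. Circles are mock libraries, triangles crispant libraries, numbers are replicates, and bars are the mean with the SD of 3 libraries. In *col4a3* the groups do not overlap, in *col17a1a* and *col28a1* mock replicate 1 is far above the rest, and *col12a1a* and *col12a1b* differ in opposite directions.

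Among the collagens beside basement membranes, the multiplexin *col18a1*, whose product can release the fragment endostatin, was abundant. Its FPKM was 86.5, 83.3 and 56.2 in mock and 93.8, 103 and 85.1 in crispant libraries. Only mock replicate 1 exceeded a crispant library, and the log2 fold change was 0.32 (95% interval -0.24 to 0.88). FPKM of *col15a1b*, the multiplexin known from notochord and muscle, was 9.64, 10.6 and 6.82 in mock and 7.16, 9.40 and 5.53 in crispant libraries, with a log2 fold change of -0.29 (-0.90 to 0.31). The type VII gene *col7a1*, whose product forms the anchoring fibrils under the epidermis, had 10.3, 13.6 and 5.35 FPKM in mock and 6.21, 9.83 and 6.53 in crispant libraries, with a log2 fold change of -0.37 (-1.16 to 0.42). Its relative *col7a1l* had 10.5, 11.2 and 3.81 FPKM in mock and 6.22, 9.65 and 7.62 in crispant libraries, with a log2 fold change of -0.11 (-0.99 to 0.76). In both type VII genes mock replicates 1 and 2 lay above all crispant libraries and mock replicate 3 below them. Some counts of *col7a1l* may belong to shorter same-strand gene models inside it.

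The type XVII genes encode a membrane collagen that holds basal epidermal cells to the basement membrane through hemidesmosomes. FPKM of *col17a1a* was 3.15, 0.403 and 1.31 in mock and 0.189, 0.169 and 0.608 in crispant libraries, from 33 to 553 counts. Mock replicate 1 was the highest by far, while mock replicate 2 lay below crispant replicate 3. The log2 fold change was -2.32 (SE 0.80), and edgeR gave a quasi-likelihood p of 0.019 and a Benjamini-Hochberg adjusted p of 0.734. Leaving out 1 library at a time gave log2 fold changes from -3.18 (without crispant replicate 3) to -1.41 (without mock replicate 1). DESeq2 on all libraries gave an adjusted p of 0.102, but 0.00821 without mock replicate 2, where it called 0.957% of all genes, and 0.0168 without crispant replicate 3, where it called 0.335%. In these fits edgeR's adjusted p was 0.544 and 1.00. Counts of the paralogue *col17a1b* were 151, 50 and 121 in mock and 34, 40 and 136 in crispant libraries, with a log2 fold change of -0.89 (95% interval -2.39 to 0.60). The summed CPM of 18 epidermis markers ran from 20720 to 41218 in mock and from 23392 to 28913 in crispant libraries and overlapped, and the part of epidermal content in the type XVII values was not tested.

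A like pattern was seen in *col28a1*, a collagen related to type VI by its von Willebrand A domains. Its FPKM was 2.64, 0.780 and 0.910 in mock and 0.217, 0.278 and 0.908 in crispant libraries, from 33 to 393 counts. Mock replicate 1 was again highest, and mock replicate 2 lay below crispant replicate 3. The log2 fold change was -1.62 (SE 0.69), with a quasi-likelihood p of 0.046 and a Benjamini-Hochberg adjusted p of 0.891 from edgeR, and it was -0.85 without mock replicate 1. DESeq2 called it without crispant replicate 3 only (adjusted p 0.0335).

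Type VI collagen forms beaded microfilaments around muscle and other cells. FPKM of *col6a1* was 13.1, 7.07 and 5.89 in mock and 10.4, 6.79 and 12.1 in crispant libraries, with a log2 fold change of 0.17 (95% interval -0.61 to 0.96). The partner chain *col6a2*, a neighbour on the same strand of chromosome 11, followed it from library to library. The FPKM of *col6a1* over that of *col6a2* lay between 1.41 and 1.46 in mock and between 1.31 and 1.55 in crispant libraries, while *col6a1* itself varied more than that among the mock libraries. In both genes mock replicate 1, crispant replicate 1 and crispant replicate 3 were the high libraries, an order unlike that of type II collagen. The other type VI rows were *col6a6* and 2 rows named *col6a3* that lie on the same strand and share 10360 bases, so counts between these 2 are uncertain. None of the 4 type VI rows after *col6a1* was past an unadjusted p of 0.05.

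The fibril-associated genes *col12a1a* and *col12a1b* encode duplicates of type XII collagen, which binds type I fibrils in dermis, tendon and muscle sheath. FPKM of *col12a1a* was 26.6, 16.8 and 11.5 in mock and 29.98, 20.6 and 24.2 in crispant libraries. FPKM of *col12a1b* was 26.3, 19.5 and 8.36 in mock and 12, 11 and 14.7 in crispant libraries. The log2 fold change was 0.45 (SE 0.32, unadjusted p 0.196 in edgeR's test) for *col12a1a* and -0.52 (SE 0.38, unadjusted p 0.206) for *col12a1b*, and the groups overlapped in both. The FPKM of *col12a1a* over that of *col12a1b* was 1.01, 0.864 and 1.37 in mock and 2.50, 1.86 and 1.64 in crispant libraries. The ratio thus lay on both sides of 1 in mock libraries, with mock replicate 3 nearest the crispants, and above 1 in every crispant library. This ratio and that of *col9a2* to *col9a1b* were the 2 of 10 ratios in which the groups did not overlap. No background share was computed for such ratios. The 11.9% of all genes given above is for levels of single genes and is not a background for ratios. Without mock replicate 3 the log2 fold changes were 0.22 and -0.84, the second with a quasi-likelihood p of 0.00216 and a Benjamini-Hochberg adjusted p of 0.181 from edgeR and an adjusted p of 0.0122 from DESeq2, under the fold threshold in both. Without mock replicate 1 they were 0.81 and -0.14. FPKM of *col14a1a*, a FACIT of the embryonic skin, was 18.2, 20.4 and 7.76 in mock and 16.6, 18.2 and 16.7 in crispant libraries, with a log2 fold change of 0.16 (95% interval -0.60 to 0.91).

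The 2 type X genes and *col8a1b* were at or near 0 at this stage. Counts of *col10a1a*, a type X gene of hypertrophic cartilage and of zebrafish osteoblasts, were 0 in all libraries but crispant replicate 3, which had 7. Counts of *col10a1b* were 10, 8 and 14 in mock and 5, 9 and 8 in crispant libraries. Counts of *col8a1b* were 2, 6 and 6 in mock and 9, 5 and 8 in crispant libraries. At this depth no difference in these 3 genes was detectable. In all, 9 of the 42 tested genes had a mean below 1 FPKM, and 20 had a mean of at least 10 FPKM, of which 14 had a 95% interval within a 2-fold change.

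Mock replicate 3 was the lowest of the 6 libraries for 23 of the 42 genes, and gene length moved with this. The FPKM in mock replicate 3 over the mean of mock replicates 1 and 2 had a median of 0.576 over the collagens, below 1 in 33 of 42, and of 1.01 over all tested genes. Collagen genes are long, with a median length of 5963.5 bases against 2322 over all tested genes. All 13 collagens of 8000 bases or more lay below 1 in this ratio, with a median of 0.509, but 94.3% of all genes of that length did too, with a median of 0.527. Of the 8 collagens under 4000 bases 4 lay below 1, and the 4 above 1 were type IX genes. In this library the long collagens were thus close to other genes of their length. The median of those under 4000 bases was 0.771 against 1.16 over all genes of that length. It falls in a gap, with *col8a1a* at 0.473 next below and *col9a1a* at 1.26 next above. Among the short rows, the shorter *col6a3* row and the shorter *col19a1* row had only 1 count each in mock replicate 3.

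**Figure D5:**
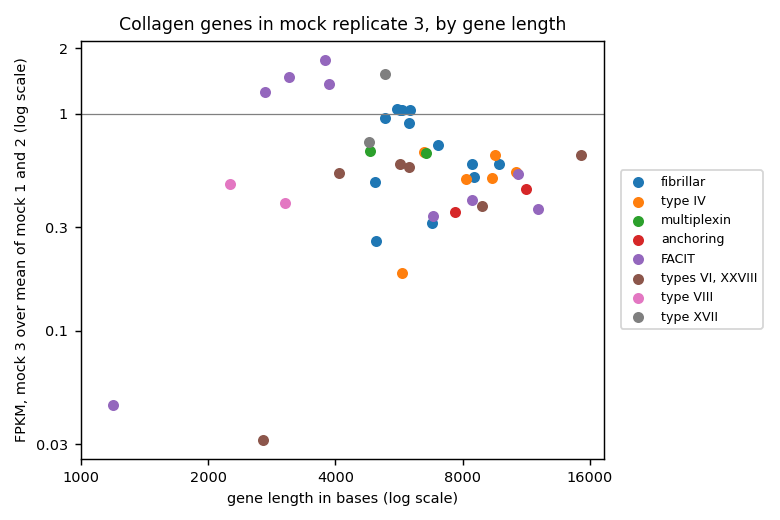
FPKM in mock replicate 3 over the mean of mock replicates 1 and 2 for the 42 tested collagen genes, against gene length in bases, both on log axes and coloured by class. All 13 genes of 8000 bases or more lie below the line at 1, and the 4 FACIT points above 1 at shorter lengths are type IX genes.

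Without mock replicate 3 the collagens lay further below the other genes. The median log2 fold change was then -0.24 over the 42 collagens and 0.01 over all genes, and 36 of 42 were below 0. At an unadjusted p of 0.05, 7 were lower (*col4a3*, *col4a4*, *col7a1*, *col7a1l*, *col12a1b*, *col17a1a* and *col28a1*) and 0 were higher, against 5.28% of all genes lower. The groups did not overlap in 11 lower and 1 higher collagens, the higher being *col18a1*, against 14.3% of all genes lower and 15.1% higher. No collagen passed the adjusted threshold in this comparison, which 0.0935% of all genes did. Without mock replicate 1 instead, the median was 0.03 over the collagens and 0.004 over all genes, with 21 collagens above 0 and 21 below. Whether the collagens as a whole lay below the other genes therefore depended on which mock library was left out.

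With the trend of gene length taken out of each library, the groups did not overlap in 4 collagens, against 13.2% of all genes. These were *col12a1a* and *col18a1*, both higher, and *col12a1b* and *col5a2b*, both lower. The groups of *col4a3* then overlapped, but its log2 fold change was -0.99 (SE 0.38), beside -0.97 (SE 0.39) without this correction. The median over the 42 collagens was -0.13 with the trend removed, and 31 of them were negative. In the comparison of all 6 libraries without this correction, median log2 fold changes by class were -0.07 for type IV, 0.01 for the multiplexins, -0.24 for type VII, -0.11 for the FACITs, -0.08 for types VI and XXVIII, 0.02 for type VIII and -1.61 for type XVII. Leaving out 1 library moved the type XVII median between -2.46 (without crispant replicate 3) and -1.04 (without mock replicate 1) and the type VII median between -0.54 (without mock replicate 3) and 0.04 (without mock replicate 2). The type XVII value rests on 2 genes of low level, the second of them below 1 FPKM in all libraries.

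Collagen rows under other names were kept apart. There were 9 rows named in capitals, of which 8 were tested, and 6 rows that the gene name table lists as collagens although the file gives them another name, of which 5 were tested. The most abundant, *COL5A2 (2 of 2)*, had 51.8, 46.3 and 36.6 FPKM in mock and 29.9, 41.4 and 33.2 in crispant libraries, with a log2 fold change of -0.37 (95% interval -0.88 to 0.14). Among the others *si:dkey-211m23.2*, listed as *col28a2a*, had 24, 29.5 and 8.5 FPKM in mock and 14.1, 33.3 and 9.69 in crispant libraries, with crispant replicate 2 highest as for type II collagen. Both were picked for description with their values known. Groups overlapped in all 13 tested rows, and adding them moved the median log2 fold change of the collagens from -0.12 to -0.14. The ceramide transfer protein gene *col4a3bpa*, which meets the name rule only, had 5.41, 6.51 and 4.31 FPKM in mock and 8.60, 7.01 and 9.97 in crispant libraries, with a log2 fold change of 0.66 (unadjusted p 0.0265).

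Genes that modify, export and process collagen did not pass the adjusted threshold in edgeR's test either, which 0 of all 20812 genes passed. Of 22 tested genes that modify collagen chains in the endoplasmic reticulum (median log2 fold change 0.14), 14 that export it (0.02) and 14 that cleave or cross-link it (0.01), 0 were past an unadjusted p of 0.05 in either direction, beside 5.49% of all genes. Those named by level were *ppib*, a proline isomerase, at 250, 291 and 654 FPKM in mock and 283, 374 and 298 in crispant libraries, *sparc*, a collagen-binding protein, with a log2 fold change of -0.47 (SE 0.32), and *pcolcea*, which speeds the cleavage of procollagen, with -0.28 (SE 0.26). In *ppib* mock replicate 3 was far above the rest. The collagen chaperone gene *serpinh1b*, singled out after its values were seen, had 18.9, 37.4 and 158 FPKM in mock and 34.6, 71.4 and 411 in crispant libraries, so it varied more within each group than between them. It rose from replicate 1 to replicate 3 in both groups, and each crispant library was above the mock library of the same number. Neither the paper nor the labels say that libraries of the same number are paired.

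Of 26 tested proteins that bind fibrils, 5 were lower and 1 was higher at an unadjusted p of 0.05, beside 2.47% of all genes lower and 3.01% higher. The median log2 fold change of the 26 was -0.26, with 18 below 0, beside 54.5% of all genes below 0. Without mock replicate 3 the median was -0.31. The groups did not overlap in 5 lower and 2 higher of the 26, beside 5.44% of all genes lower and 6.5% higher. The small leucine-rich proteoglycan gene *lum*, which spaces type I fibrils, had 38.5, 29.8 and 41.1 FPKM in mock and 16.8, 24.7 and 22.5 in crispant libraries (log2 fold change -0.77, unadjusted p 0.00925). The related *epyc*, of cartilage, had 8.36, 9.05 and 13.7 FPKM in mock and 4.78, 5.61 and 5.34 in crispant libraries (-0.99, unadjusted p 0.00371). The groups of *lum*, *epyc*, *ogn* (-0.90) and the thrombospondin *thbs4a* (-2.51) did not overlap, while those of *fmodb* (-2.13) did and, like *col17a1a* and *col28a1*, it was highest in mock replicate 1. Fibronectin gene *fn1b* had 18.9, 14.8 and 8.41 FPKM in mock and 91.1, 32.2 and 62.2 in crispant libraries, so that every crispant library was above every mock library (log2 fold change 2.14, SE 0.44, unadjusted p 0.00106). None of these passed in edgeR's test after adjustment, where 0 of all 20812 genes passed, so this does not set them apart. DESeq2, which called 0.794% of all genes, is not given here for the genes of the 14 lists.

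Of 14 tested collagen receptor genes, the integrin *itgb1b.2* was lower (log2 fold change -1.24, unadjusted p 0.00648) and the integrin *itga2.3*, under 1 FPKM in all libraries, was higher (2.06, unadjusted p 0.0125), which is 1 gene in each direction beside 2.47% of all genes lower and 3.01% higher at an unadjusted p of 0.05. Of 22 genes of the TGF-beta pathway, which drives collagen transcription in many tissues, 1 was higher and 1 was lower at that level, the lower being the signal carrier *smad3b* (-1.22, unadjusted p 0.0104). Of 17 tested basement membrane partners 1 was higher and 0 were lower. The median log2 fold change was 0.05 over the receptors, 0.00 over the basement membrane partners and -0.04 over the TGF-beta pathway genes. Without mock replicate 3 these medians were -0.39, -0.18 and -0.21. No gene of these 3 lists passed in edgeR's test after adjustment, where 0 of all 20812 genes passed.

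Marker sums of other collagen-producing tissues were set beside these values. The summed CPM of 20 sclerotome and fibroblast markers (18 tested) ran from 407 to 500 in mock and from 392 to 417 in crispant libraries. That of 23 pharyngeal and crest markers (21 tested) ran from 595 to 626 and from 448 to 605. That of 9 osteoblast markers (5 tested) ran from 56.6 to 73.0 and from 51.8 to 64.9. All 3 sums overlapped between groups. At an unadjusted p of 0.05 the crest marker *barx1* was lower (log2 fold change -1.42, but -0.64 without mock replicate 3), and 0 of the fibroblast and osteoblast markers were past it, where *prrx1a* (0.06) and *phex* (-0.06) were the most abundant. The median log2 fold change was -0.37 over the fibroblast markers, with 15 of 18 below 0, beside 54.5% of all genes below 0. Over the osteoblast markers it was -0.35, with 4 of 5 below 0. Without mock replicate 3 these 2 medians were -0.09 and -0.69. Over the pharyngeal and crest markers the median was -0.27, with 15 of 21 below 0, and -0.20 without mock replicate 3. The groups did not overlap in 5 lower and 2 higher of these markers, beside 5.44% of all genes lower and 6.5% higher. The summed CPM of 22 fast muscle markers ran from 30254 to 53648 in mock, highest in mock replicate 3, and from 27004 to 30153 in crispant libraries. These sums did not overlap only by a narrow margin, 30254 in mock replicate 2 against 30153 in crispant replicate 2. All 22 markers had a log2 fold change below 0 (median -0.66, -0.23 without mock replicate 3), beside 54.5% of all genes. At an unadjusted p of 0.05, 2 were lower, *acta1b* (-0.67) and *myhz2* (-0.76), beside 2.47% of all genes. In the notochord, floor plate and epidermis lists 1 gene each was higher at that level, *ehd2b* (0.65), the ciliated cell regulator *foxj1a* (0.99) and the epithelial cadherin *cdh1* (0.55). None of the marker genes passed in edgeR's test after adjustment, where 0 of all 20812 genes passed. The part of these tissues in the collagen values was not tested.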

How the data were processed

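Zebrafish libraries were grouped by their labels. Human samples were not analysed here. The authors deposited raw counts per gene and FPKM values, made by a sequencing provider's pipeline in which HISAT2 aligned strand-specific reads to GRCz10/danRer10. The program that counted them and the annotation release are not given in the sources used here. The FPKM values deposited by the authors are counts over gene length and over a depth set by DESeq2 size factors, which was tested on the table. The 5 columns of the authors' own comparison (2 group means, log2 fold change, p and adjusted p) were not used. No other columns were left out (0 per library).

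Counts were scaled by TMM and tested with edgeR 4.0.16 (quasi-likelihood F test) in R 4.3.3 after filterByExpr with a minimum count of 10, with Benjamini-Hochberg adjustment over 20812 genes. Genes were called at an adjusted p of 0.05 and a log2 fold change of 1 or more in size. Standard errors came from the fold change and F statistic. The test was checked on simulated counts. DESeq2 1.42.0, limma 3.58.1 and other settings were alternatives. Precision per library is set by total counts of 33841805 to 40515803, and intervals cover the spread between 3 libraries per group.

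The collagens, the 14 gene lists and the tests were chosen with earlier results of these data known. Named with values were all tested fibrillar and type IV genes, the 12 other collagens with the highest mean FPKM, the 8 others with the smallest p and, from each list, at most 6 genes at an unadjusted p of 0.05 or else the most abundant; a few of these are not reported here. Symbols follow the file: the gene name table matched 44 of the 45 collagens, and lists *col6a6* as *col6a4a*.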

Additional observations from a re-analysis of the deposited data

How the results depend on the processing

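The count of 0 collagens called held with DESeq2 size factors, other filters, limma-voom, robust edgeR, the length trend removed and each library left out of edgeR. With sample quality weights 1 collagen (*col4a3*) and 324 genes were called, 11 collagens were at an unadjusted p of 0.05 (19.1% of all genes), and the type VIII median was -0.60. Over all genes, DESeq2 called 165, no filter 2 and the length trend removed 2, where 4 collagens did not overlap. Leaving out 1 library gave 0 to 20 genes with edgeR and 49 to 305 with DESeq2 (the last chosen after seeing the data), 0 to 2 collagens called (2 with DESeq2 without crispant replicate 3), 0 (without crispant replicate 1) to 7 (without mock replicate 3) collagens at an unadjusted p of 0.05, 2 to 12 without overlap, and medians of types VI and XXVIII from -0.32 to 0.51. The cause of these shifts was not tested. Of 34 named collagens, 16 kept their sign in every such edgeR fit.

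Over all tested genes, the deviations of mock and crispant libraries of the same replicate number correlated at 0.231, -0.057 and -0.10. These values lay within the range of pairs of unlike number, -0.368 to 0.280. Single genes such as *serpinh1b* could still rise with the replicate number in both groups. With the replicate number as a block, 0 collagens were called, 2 were at an unadjusted p of 0.05 and their median was -0.14. Depth limits the genes under 1 FPKM.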
